A study of Bos taurus with 46 samples.

Results

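The miRNAs bta-miR-146a, bta-miR-146b, bta-miR-150 and bta-miR-155, which are known as regulators of the immune response, were taken by name from a small-RNA sequencing study of heifer plasma in early pregnancy. They are 4 of the 870 miRNA names counted, and all 4 were among the 214 names tested. Levels are in RPM, the count of a miRNA scaled by the mapped reads of its library, and a name was left out if over 75% of libraries were below 25 RPM in every group. Cycling Holstein-Friesian heifers, little more than a year old and kept on a single farm, were brought into oestrus together with a progesterone insert, buserelin and cloprostenol. The non-pregnant group (NP) held 8 heifers that were sham-inseminated and bled on that day (NP0) and again 8 and 16 days later in the cycle (NP8 and NP16), and NP without a day stands for the 3 days of a heifer combined. The pregnant group held 11 heifers that were inseminated with frozen semen, were found pregnant by ultrasound and were bled on Days 16 and 24 of pregnancy (P16 and P24). EDTA plasma was spun a second time to take out platelets and debris before RNA was extracted, so that the RNA measured is that left in cell-poor plasma.

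A miRNA is a short RNA that guides the silencing complex to messenger RNAs that pair with its 5′ end. In human and mouse cells, miR-146a is switched on by NF-kB. Both miR-146a and miR-146b repress the adaptors TRAF6 and IRAK1, which makes them a brake on Toll-like receptor signalling. miR-150 is abundant in mature B and T lymphocytes and represses the transcription factor MYB. miR-155 is switched on when lymphocytes and macrophages are activated and represses the cytokine signalling inhibitor SOCS1. In cattle, the elongating conceptus secretes interferon tau, the signal by which the mother recognises the pregnancy, and circulating leukocytes respond to it. Blood cells release miRNAs into plasma, where a larger number of releasing cells and a larger release per cell cannot be told apart.

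On the bovine genome build UMD 3.1, the deposited table places mature bta-miR-146a on chromosome 7, from 71934169 to 71934192 on the plus strand, and bta-miR-146b on chromosome 26, from 23509778 to 23509801 on the plus strand. The table places bta-miR-150 on chromosome 18, from 55905355 to 55905377 on the minus strand, and bta-miR-155 on chromosome 1, from 10199667 to 10199689 on the minus strand. The placed lengths were 24 bases for both miR-146 forms and 23 bases for the other members, so that a read stands for about the same length of each. In the RefSeq annotation of the newer assembly ARS-UCD2.0, used here for gene names only, no other gene overlapped any of the 4 miRNA genes. The mature miR-146 forms differ only near their 3′ end, and reads were matched to names with up to 1 mismatch. A read of one form may therefore count for the other, and their separate values are uncertain to that extent.

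The 45 libraries used held from 651408 to 5440381 miRNA reads, and miRNAs made up 52.5% to 80.1% of their mapped reads. A library of the P16 group, that of heifer 28, stood apart with 33.1% and was left out. In that library all 4 members were at their lowest of the 46 libraries, with 45.6 RPM of miR-146a, 19.1 RPM of miR-146b, 1807 RPM of miR-150 and 19.9 RPM of miR-155. As a share of miRNA reads, its miR-146a, miR-146b and miR-150 were no lower than the lowest of P16. Its miR-155 share of 0.00600% was below the lowest of the others, 0.0155%. The P24 library of heifer 24 also stood apart for these members, and results that rest on it are given with and without it, a choice made after seeing the data.

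miR-150 was by far the most abundant of the members, with a mean of 6065 ± 2866 RPM (SD, n = 45 libraries) and the 25th highest mean of the 870 names. miR-155 was 115th with 196 ± 120 RPM, miR-146a was 130th with 130.3 ± 38.4 RPM, and miR-146b was 182nd with 38.5 ± 14.7 RPM. Together the members took 0.937 ± 0.418% of the miRNA reads of a library, and miR-150 supplied between 87.4% and 98.1% of that. Adapter ligation favours some miRNA sequences over others, so this order is one of reads. The spread over libraries (coefficient of variation) was 29.5% for miR-146a, 38.3% for miR-146b, 47.3% for miR-150 and 61.0% for miR-155, against a median counting error of 4.41%, 8.39%, 0.706% and 3.96%. Counting error here covers the reads only, since no molecular identifiers were used.

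**Figure D1:**
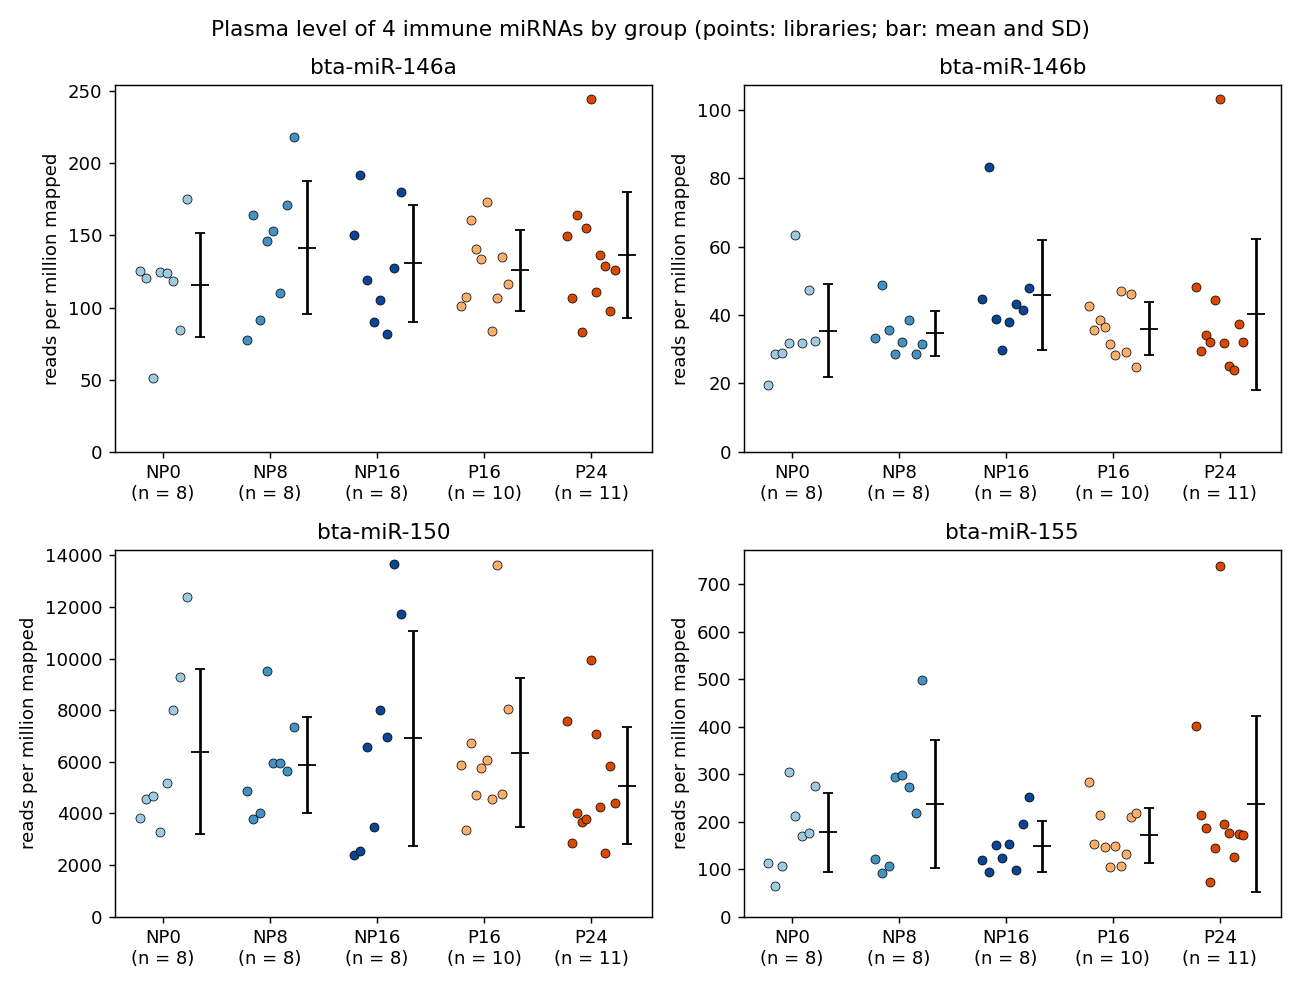
Level of each miRNA (vertical axis, RPM) in each library (points) of NP0, NP8, NP16 (8 heifers each), P16 (10) and P24 (11), with the group mean and SD (bar to the right of the points). The groups overlap for every member, and the highest points of miR-146a, miR-146b and miR-155 are all the P24 library of heifer 24, at 245, 103 and 739 RPM.

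The comparisons asked whether the level of a member differed between pregnant and non-pregnant heifers, and between days within either state. No member passed a false discovery rate (FDR) of 0.1 in any of the 7 comparisons in edgeR, where p-values were adjusted over the 214 miRNAs. The share of all tested miRNAs that passed was 0.935% in P16 vs NP and 0% in each of the other 6 comparisons. At an unadjusted p under 0.05 in edgeR, miR-146b was below the limit in P16 vs NP16, NP16 vs NP8 and NP16 vs NP0, and the other members were below it in no comparison. The corresponding share of all miRNAs was 7.01% in P16 vs NP, 3.27% in P24 vs NP, 7.01% in P16 vs NP16, 1.4% in P24 vs P16, 8.88% in NP8 vs NP0, 2.34% in NP16 vs NP8 and 5.61% in NP16 vs NP0. The members also passed the FDR in none of 549 alternative values, from DESeq2, limma, other scalings and filters and leaving out heifers, in which the smallest adjusted p was 0.302. Both comparisons with NP use the same 8 non-pregnant heifers, and the pregnant heifers are the same on both days. The main edgeR fits between days of the same heifers did not pair the days by heifer. Among the alternatives, only the replicate block did.

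**Figure D2:**
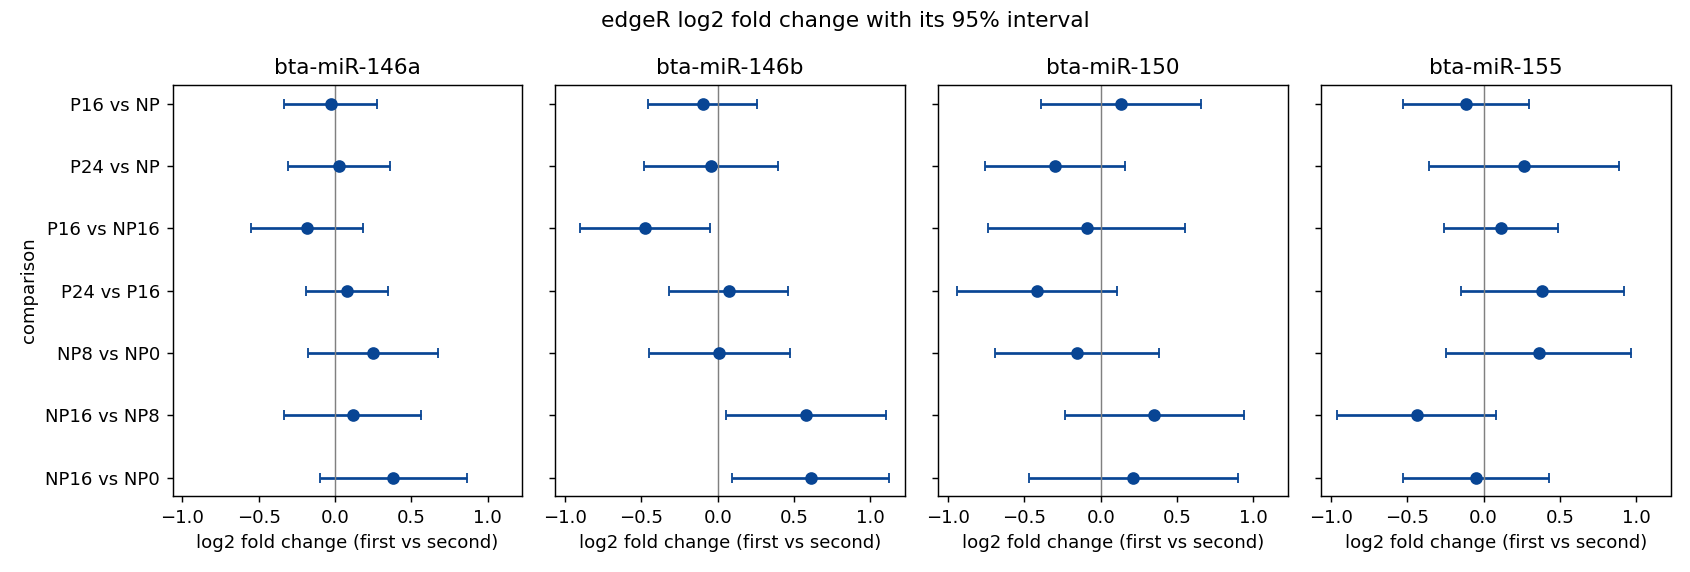
Log2 fold change in edgeR (horizontal axis, first group against second) of each miRNA in the 7 comparisons (rows), with its 95% interval (bars). Intervals between days of the same heifers do not use the pairing by heifer. Every interval spans 0 except those of miR-146b in P16 vs NP16 (-0.48), NP16 vs NP8 (0.58) and NP16 vs NP0 (0.61), and none of these passed after adjustment over all miRNAs.

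miR-146a, the better studied form of the NF-kB brake, had group means that differed by less than the spread within groups. On Day 0 of the cycle its lowest, median and highest values were 51.5, 122 and 176 RPM, on Day 8 they were 77.8, 149 and 218 RPM, and on Day 16 they were 81.7, 123 and 192 RPM. In pregnancy they were 83.5, 125 and 174 RPM on Day 16 and 83.0, 129 and 245 RPM on Day 24. The groups overlapped throughout, and their means ran in the order NP0, P16, NP16, P24 and NP8, from 116 ± 35.8 to 142 ± 46.3 RPM (SD, n = 8 each). Each gap between neighbours in that order was smaller than the SD of either. The fold change in edgeR was 0.981 in P16 vs NP, with a 95% interval of 0.795 to 1.21, and 1.02 in P24 vs NP, with an interval of 0.810 to 1.28. Over the cycle it was 1.30 in NP16 vs NP0, with an interval of 0.935 to 1.82. That log2 fold change of 0.38 was 0.18 without heifer 18, 0.08 with library totals and 0.19 with limma on log2(RPM + 1). Within heifers, miR-146a was higher on Day 8 than on Day 0 in 6 of 8 (exact sign-flip permutation p = 0.172), and higher on Day 24 than on Day 16 of pregnancy in 7 of 10 (exact p = 0.520).

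miR-146b, the less abundant form, had its highest group mean on Day 16 of the cycle. Its lowest, median and highest values were 19.4, 31.8 and 63.4 RPM in NP0, 28.5, 32.7 and 48.9 RPM in NP8 and 29.8, 42.3 and 83.2 RPM in NP16. They were 24.9, 36.1 and 47.2 RPM in P16 and 24.0, 32.3 and 103 RPM in P24. The means ran in the order NP8, NP0, P16, P24 and NP16, from 34.6 ± 6.66 to 45.9 ± 16.0 RPM (SD, n = 8 each), and no gap between neighbours exceeded the smaller SD of the pair. Without heifer 24, P24 had a mean of 33.9 ± 7.70 RPM (n = 10), the lowest of the groups, in place of 40.2 ± 22.1 RPM. In NP16, 7 of the 8 libraries lay between 37.9 and 83.2 RPM and the lowest was at 29.8 RPM.

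The 8 heifers had 44.8, 83.2, 38.95, 29.8, 37.9, 43.2, 41.5 and 47.8 RPM of miR-146b on Day 16 of the cycle and 33.2, 48.9, 35.5, 28.6, 32.2, 38.6, 28.5 and 31.5 RPM on Day 8, in the order of heifers 16, 18, 20, 21, 22, 25, 34 and 35. It was thus higher on Day 16 in 8 of 8, by 0.06 to 0.76 on the log2(RPM + 1) scale and by 0.36 ± 0.25 on average (SD). The exact two-sided sign-flip test gave p = 0.00781, the smallest that 8 heifers allow, and 0.545 after adjustment over 214 miRNAs. A level that was higher in every heifer was seen for 2 of the 214 miRNAs, or 0.935%, in this comparison, and 4.67% had an unadjusted p under 0.05 in this test. Against Day 0, miR-146b was higher on Day 16 in 5 of 8 heifers (exact p = 0.188).

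In edgeR, the log2 fold change of miR-146b was 0.58 ± 0.25 (SE) in NP16 vs NP8 (p = 0.0330, adjusted p = 0.889) and 0.61 ± 0.24 in NP16 vs NP0 (p = 0.0228, adjusted p = 0.617). These 2 fits took the days of a heifer as independent libraries. With the replicate block in edgeR, which pairs days by heifer, the values were 0.55 (adjusted p = 0.302) and 0.55 (adjusted p = 0.356). Between the states on Day 16, the log2 fold change of miR-146b was -0.48 ± 0.20 in P16 vs NP16 (p = 0.0291, adjusted p = 0.638), a fold of 0.717 with a 95% interval of 0.534 to 0.963. The exact permutation test of the same 18 libraries on log2(RPM + 1) gave a difference of -0.31 and p = 0.0804. Against the 3 cycle days with their counts summed within each heifer, the change in edgeR was smaller, at -0.10 in P16 vs NP and -0.04 in P24 vs NP. These values depended on scaling and on heifer 18. With library totals in place of the TMM scaling of edgeR, which moved the median of all miRNAs by -0.17 in NP16 vs NP8, by -0.23 in NP16 vs NP0 and by 0.17 in P16 vs NP16, the log2 fold changes of miR-146b were 0.39, 0.33 and -0.265. Without heifer 18, which had 83.2 RPM on Day 16, they were 0.39, 0.27 and -0.19.

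The summed markers of erythrocytes, like miR-146b, had their highest group mean on Day 16 of the cycle. Their lowest group mean was in P24, where miR-146b averaged 40.2 RPM with heifer 24 and 33.9 RPM without it, against 45.9 RPM in NP16. The sum is mostly miR-486, with a P24 median of 128470 RPM outside heifer 24, against 9246 RPM for miR-451 and 107 RPM for miR-144. The 3 of 3 markers found (miR-486, miR-451 and miR-144) summed to 14.7% to 47.7% of miRNA reads in NP16, with a mean of 29.9 ± 10.7% (SD, n = 8). The range was 6.65% to 44.98% in NP0, 9.17% to 38.8% in NP8, 12.7% to 40.5% in P16 and 12.6% to 25.2% in P24, with means of 21.4%, 21.0%, 21.8% and 20.2%. The ratio of miR-451 to miR-23a in sequencing reads averaged 7.54 in NP16 and 4.44 to 5.18 in the other groups. In NP16 its median was 6.93 and its highest value 16.8. The paper used these 2 miRNAs as an index of haemolysis by RT-qPCR, next to optical density, and found no detectable haemolysis in the profiled samples. The 3 leukocyte markers (miR-142-5p, miR-142-3p and miR-223) summed to between 2.24% and 4.78% over all groups, with means of 3.04% to 3.45%. Of these, the paper lists miR-223 with the miRNAs reported to be high in platelets. None of the markers was at 0, and their part in the course of miR-146b was not tested.

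Both forms were read together as the ratio of miR-146a to miR-146b, which varied from 1.77 to 6.92 over the 45 libraries with a mean of 3.65 ± 1.32. The ratio was lowest on average in NP16, at 2.91 ± 0.588, and highest in NP8, at 4.24 ± 1.70 (SD, n = 8 each). It was 3.66 ± 1.74 in NP0, 3.68 ± 1.25 in P16 and 3.71 ± 1.08 in P24, and all groups overlapped.

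miR-150, the lymphocyte miRNA, varied widely within each group, and the groups covered much the same range. Its lowest, median and highest values were 3290, 4917 and 12382 RPM in NP0, 3765, 5797 and 9499 RPM in NP8 and 2370, 6772 and 13654 RPM in NP16. They were 3349, 5835 and 13637 RPM in P16 and 2463, 4258 and 9944 RPM in P24. P24 had the lowest mean, 5079 ± 2283 RPM (n = 11), and NP16 the highest, 6914 ± 4163 RPM (n = 8), and no neighbours in the order P24, NP8, P16, NP0 and NP16 differed by more than the smaller of their SDs. The fold change in edgeR was 1.10 in P16 vs NP, with a 95% interval of 0.763 to 1.58, and 0.813 in P24 vs NP, with an interval of 0.593 to 1.12. Between Days 24 and 16 of pregnancy it was 0.749, with an interval of 0.521 to 1.08 (p = 0.113, adjusted p = 0.999), and this value rested on heifer 29, without which the log2 fold change was -0.08 in place of -0.42.

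The courses of miR-150 within heifers crossed. Of the 10 pregnant heifers with both days, 4 were higher and 6 were lower on Day 24, with a mean log2 change of -0.33 ± 0.94 (exact sign-flip p = 0.328). The other 9 heifers, without heifer 29, averaged -0.09 ± 0.60 (exact p = 0.656), a value computed after seeing the data. Heifer 29 went from the highest P16 value, 13637 RPM, to the lowest P24 value, 2463 RPM, a log2 change of -2.47. In the cycle, heifer 21 went from 3290 RPM on Day 0 to 9499 RPM on Day 8 and back to 3479 RPM on Day 16, which were the lowest of NP0 and the highest of NP8. Without heifer 29, the log2 fold change in P16 vs NP was -0.16 in place of 0.13, so its direction rested on that animal.

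**Figure D3:**
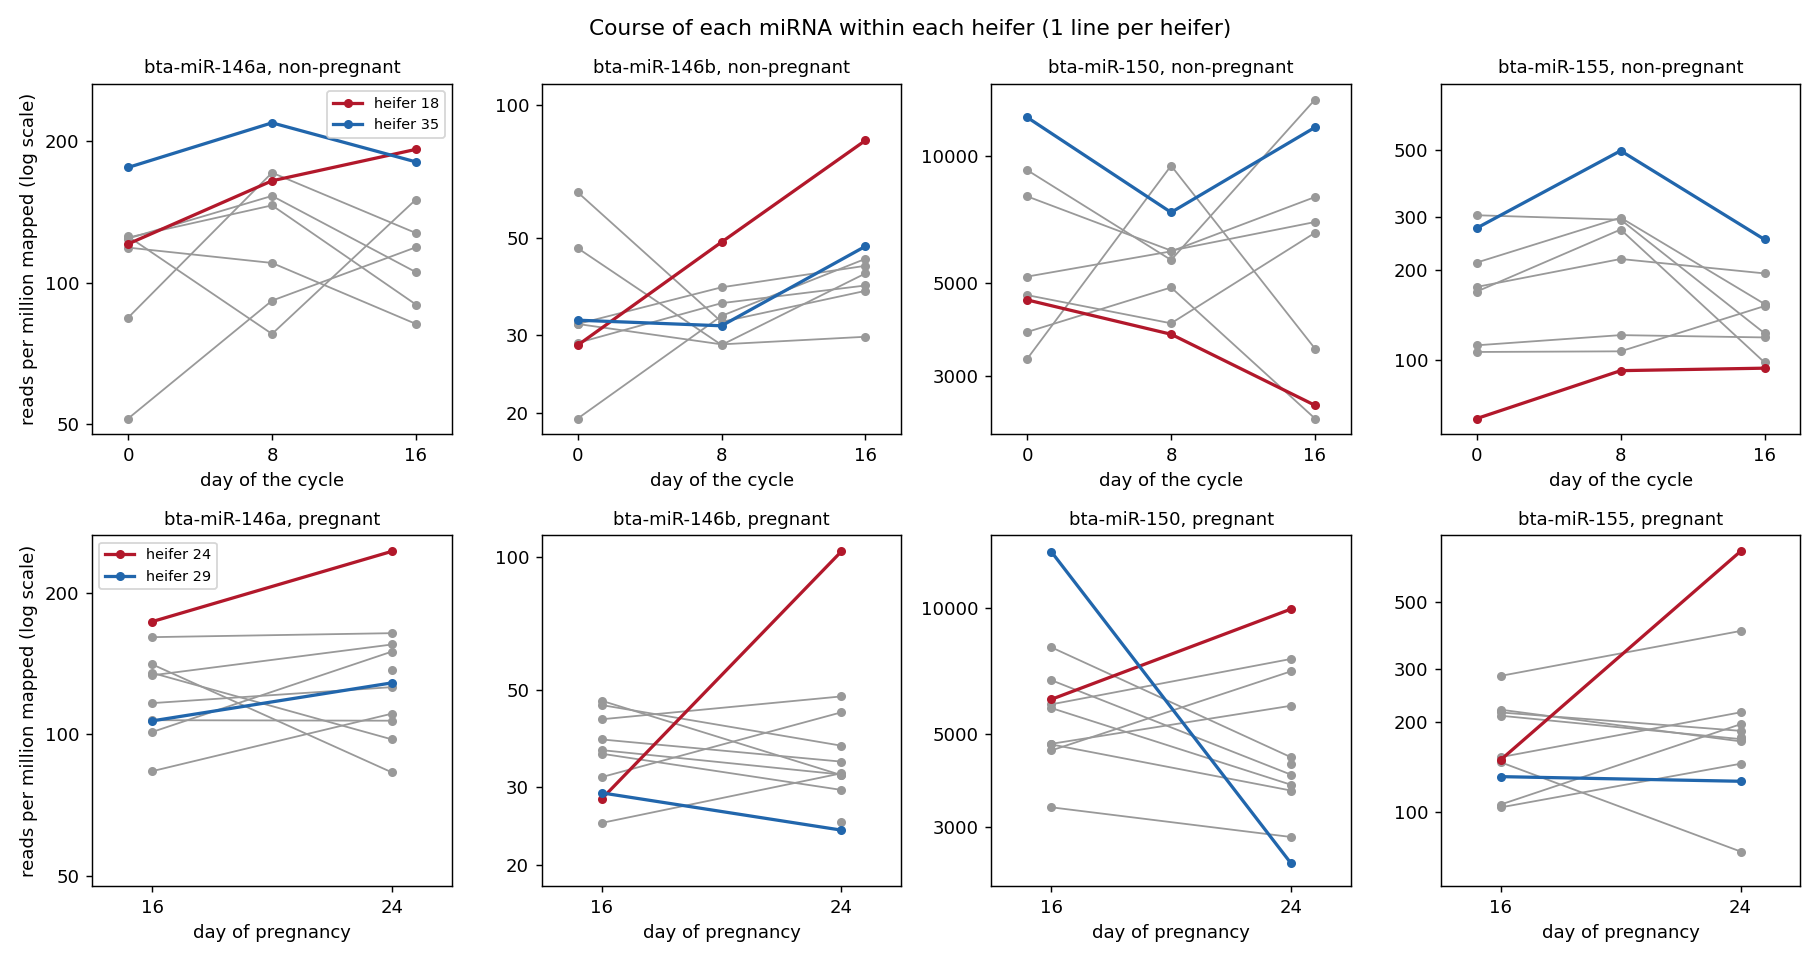
Level of each miRNA (vertical axis, RPM, log scale) against the day of the cycle (upper row, 8 heifers) or of pregnancy (lower row, 11 heifers, of which heifer 28 has Day 24 only), with 1 line for each heifer. miR-146b goes up from Day 8 to Day 16 in all 8 non-pregnant heifers, heifer 24 (red, lower row) reaches the highest Day 24 value of every member, and miR-150 of heifer 29 (blue, lower row) falls from 13637 to 2463 RPM.

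miR-155, the miRNA of activated lymphocytes and macrophages, had its highest group mean on Day 8 of the cycle, and the mean of P24 came close to it only through 1 library. Its lowest, median and highest values were 63.8, 172 and 304 RPM in NP0, 92.2, 245 and 499 RPM in NP8 and 94.0, 137 and 252 RPM in NP16. They were 103, 151 and 284 RPM in P16 and 73.7, 177 and 739 RPM in P24. The means ran in the order NP16, P16, NP0, P24 and NP8, from 148 ± 53.4 to 238 ± 135 RPM (SD, n = 8 each), again with no gap beyond the smaller SD of a pair. In edgeR the fold change was 0.922 in P16 vs NP, with a 95% interval of 0.692 to 1.23, and 1.20 in P24 vs NP, with an interval of 0.782 to 1.85. Without heifer 24, P24 had a mean of 187 ± 85.2 RPM (n = 10) in place of 237 ± 185 RPM, and the log2 fold change fell from 0.27 to 0.02 in P24 vs NP and from 0.39 to 0.09 in P24 vs P16. With the replicate block the latter was 0.21.

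Within the cycle, the 8 heifers in the order above had 112, 63.8, 106, 304, 211, 169, 175 and 275 RPM of miR-155 on Day 0, then 121, 92.2, 107, 294, 298, 272, 217 and 499 RPM on Day 8, and 119, 94.0, 151, 123, 154, 98.2, 194 and 252 RPM on Day 16. It was higher on Day 8 than on Day 0 in 7 of 8 heifers, by 0.37 ± 0.33 on the log2 scale (exact sign-flip p = 0.0234, adjusted p = 0.456 over 214 miRNAs). A level higher in at least 7 of the 8 heifers was seen in this comparison for 7.94% of the 214 miRNAs, and 10.3% had an unadjusted p under 0.05 in this test. It was then lower on Day 16 than on Day 8 in 6 of 8 heifers, by 0.54 ± 0.71 on the same scale, with exact p = 0.0859 and an adjusted p of 0.545. The median over all 214 miRNAs of this mean change was 0.07 in NP8 vs NP0 and -0.17 in NP16 vs NP8. In edgeR, the log2 fold change of miR-155 was 0.36 in NP8 vs NP0 (p = 0.226, adjusted p = 0.615). It was -0.44 in NP16 vs NP8 (p = 0.0940, adjusted p = 0.889). With the replicate block these were 0.34 (adjusted p = 0.425) and -0.36 (adjusted p = 0.63). Some blood cell markers had their highest cycle mean on Day 8 too. On Days 0, 8 and 16 the means were 376, 529 and 333 RPM for miR-142-3p, 1190, 1404 and 1034 RPM for miR-223, 3.14%, 3.45% and 3.09% of miRNA reads for the 3 leukocyte markers summed, and 4.72%, 5.51% and 4.75% for the 3 platelet markers summed (miR-126-3p, miR-126-5p and miR-191). The summed platelet markers ranged from 2.89% to 8.91%, from 2.77% to 7.10% and from 3.81% to 6.52% on these days, and the leukocyte markers from 2.40% to 4.29%, from 2.24% to 4.78% and from 2.49% to 4.64%. Others had their lowest cycle mean on Day 8. On Days 0, 8 and 16 these were miR-342 at 1139, 1056 and 1064 RPM, miR-150 at 6394, 5879 and 6914 RPM, and the summed erythrocyte markers at 21.4%, 21.0% and 29.9%. The part of these markers in the course of miR-155 was not tested. Between Days 16 and 24 of pregnancy miR-155 was higher in 5 of 10 heifers and lower in the other 5 (exact p = 0.385).

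The heifers differed in miR-155 in a way that lasted over the cycle. Heifer 18 had from 63.8 to 94.0 RPM over its 3 days and heifer 35 from 252 to 499 RPM. Heifers 18, 16 and 20 had the lowest means (83.3, 117 and 122 RPM), and the highest of their 9 libraries had 151 RPM. The share of variance that lay between heifers, after the mean of each day was taken out (intraclass correlation), was 0.667 for miR-155, the 12th highest of 214 miRNAs, against a median of 0.289 (permutation p = 0.00094, adjusted p = 0.0164). miR-150 had 0.439 (adjusted p = 0.0898), miR-146a 0.333 (adjusted p = 0.172) and miR-146b -0.02 (adjusted p = 0.613), where a negative value means that days of the same heifer were no more alike than days of different heifers. Of all 214 miRNAs, 22.4% passed an FDR of 0.1 on this measure. Without heifer 35, an alternative chosen after seeing the data, miR-155 kept 0.546 (adjusted p = 0.0763), while miR-150 had 0.317 (adjusted p = 0.192) and no longer passed, and miR-146a had 0.09 (adjusted p = 0.477). On the TMM scale, miR-155 had 0.636 (adjusted p = 0.0244), miR-150 had 0.153 (adjusted p = 0.416) and miR-146a had 0.582 (adjusted p = 0.0608). miR-155 thus passed on both scales, while the calls of miR-150 and miR-146a changed with the scale.

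In the pregnant heifers, over Days 16 and 24, no member passed on the same measure, against 13.6% of all miRNAs. The share between heifers was 0.416 for miR-146a, 0.233 for miR-155, -0.13 for miR-146b and -0.24 for miR-150, with adjusted p from 0.256 to 0.780 by permutation and a median of 0.339 over all miRNAs. Without heifer 24, also chosen after seeing the data, miR-155 had 0.506 (adjusted p = 0.196), miR-146b 0.349 (adjusted p = 0.314), miR-146a 0.09 (adjusted p = 0.486) and miR-150 -0.31 (adjusted p = 0.803). Whether the shares differed between cycle and pregnancy was not tested.

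Over the 19 heifers, each taken as the mean log2(RPM + 1) of its libraries, miR-150 and miR-155 went together. Pearson's r was 0.660 (permutation p = 0.00246, adjusted p = 0.0148 over the 6 pairs of members) and Spearman's rho was 0.658 (p = 0.00294, adjusted p = 0.0176). It was 0.809 in the 8 NP heifers (exact permutation p = 0.0166) and 0.552 in the 11 pregnant heifers (permutation p = 0.0759). Without the 2 heifers farthest from the median of miR-150, r was 0.687, and without heifer 24 it was 0.623. Among all 22791 pairs of tested miRNAs the median r was 0.241, 9.95% of the pairs had a higher r than miR-150 with miR-155, and 22.7% passed an FDR of 0.1 when adjusted over all pairs, where this pair had an adjusted p of 0.0196. On the TMM scale r was 0.457 (adjusted p = 0.303 over the 6 pairs). RPM shares a divisor within a library, and libraries of 1 heifer share a plasma donor, so these points share more than the miRNAs themselves.

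**Figure D4:**
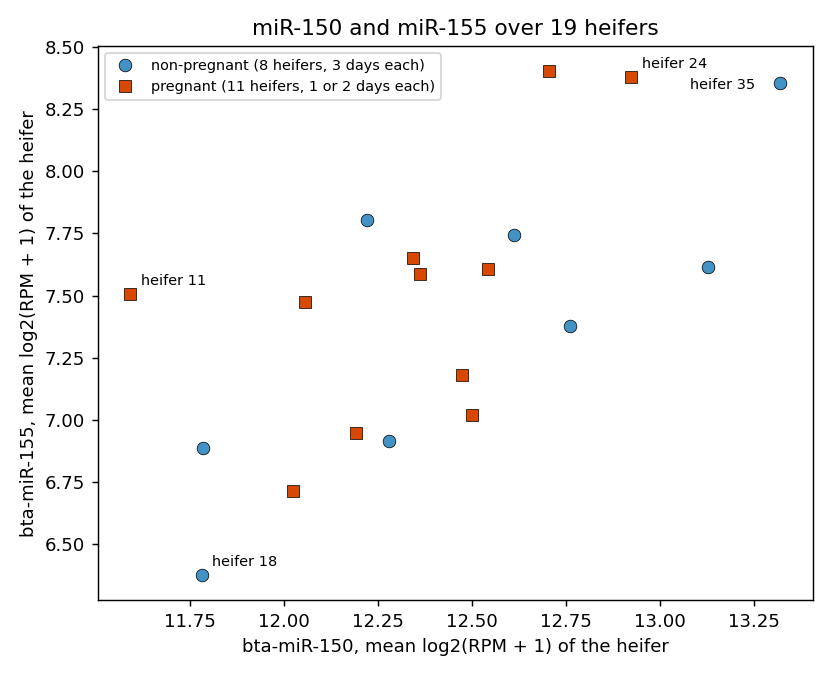
Mean log2(RPM + 1) of miR-155 (vertical axis) against that of miR-150 (horizontal axis) in 8 non-pregnant (circles) and 11 pregnant heifers (squares). Heifers with more miR-150 had more miR-155 (r = 0.660), from heifer 18 at the lower left to heifer 35 at the upper right.

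The other 5 pairs had r from 0.243 (miR-146b with miR-155) to 0.445 (miR-146a with miR-155), with permutation p adjusted over the 6 pairs from 0.170 to 0.315. The miR-146 forms had r = 0.376 with each other (permutation p = 0.112), which was 0.158 without heifers 35 and 24. For miR-146a with miR-155, r was 0.07 without the same heifers, while Spearman's rho over all heifers was 0.470 (permutation p = 0.0445, adjusted p = 0.133). Both heifers were those farthest from the median of miR-146a. Leaving them out narrows its range, which can lower r by itself, so these values cannot show whether a relation rested on them.

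The miRNAs whose heifer means were most like those of a member differed between members, and are given as a description. For miR-150 they were miR-342 (r = 0.801 over 19 heifers), miR-2284y (0.797) and miR-2284x (0.792). For miR-155 they were miR-28 (0.881), miR-26b (0.856) and miR-181d (0.853). For miR-146a they were miR-363 (0.727), miR-100 (0.639) and miR-125b (0.592), and for miR-146b they were miR-199a-3p (0.667), miR-3604 (0.650) and miR-2285t (0.622). miR-342 is, like miR-150, enriched in lymphocytes in human blood, and its r with miR-150 was 0.980 in the NP heifers and 0.807 in the pregnant ones. miR-342 itself had 1087 ± 168 RPM in NP, 1037 ± 200 RPM in P16 and 1033 ± 410 RPM in P24.

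All 4 members were at their highest of the 11 P24 libraries in heifer 24. It had 245 RPM of miR-146a against 83.0 to 164 RPM in the others, 103 against 24.0 to 48.2 RPM of miR-146b, 9944 against 2463 to 7562 RPM of miR-150 and 739 against 73.7 to 401 RPM of miR-155. For miR-146a, miR-146b and miR-155 it was also the highest of all 46 libraries, and for miR-150 the 5th. On Day 16 of pregnancy the same heifer had had 174, 28.2, 6057 and 149 RPM, which gives ratios of 1.41, 3.65, 1.64 and 4.96. The changes of miR-155 and miR-146b ranked 6th and 9th from the highest among the 214 miRNAs in that heifer, and those of miR-150 and miR-146a 52nd and 74th. Of all 214 miRNAs, 31.3% were at their highest of P24 in this library, which held 5400386 miRNA reads and had the highest miRNA share of mapped reads, 80.1%. miR-142-5p, a leukocyte marker, was at its highest of all libraries there (35084 RPM), while miR-223, a marker of neutrophils and monocytes that the paper lists for platelets, was at its lowest of P24 (805 RPM) and miR-142-3p was 4th of 11 (624 RPM). The lymphocyte miRNA miR-342 was at its highest of the 46 libraries (2168 RPM). Of the erythrocyte markers, miR-451 was the highest of P24 (14813 RPM), at 2.07 times its Day 16 value, while miR-486 was 4th of 11, at 1.85 times, and miR-144 was the third, at 1.47 times. The part of depth, miRNA share or blood cell markers in these values was not tested. Without this heifer the log2 fold change of miR-146b was -0.20 in P24 vs NP and -0.17 in P24 vs P16, against -0.04 and 0.07 with it.

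Other miRNAs with roles in immune cells gave the background for the members. Of 24 such miRNAs listed, 20 were tested, and 0 passed the FDR of 0.1 in edgeR in any of the 7 comparisons. From 7 to 11 of the 20 had a positive log2 fold change in a comparison, and the median of the 20 lay between -0.05 and 0.03, against 0.01 to 0.02 for all 214 miRNAs. At an unadjusted p under 0.05 in edgeR there was 1 of the 20 in each of P16 vs NP, P24 vs NP, P24 vs P16 and NP8 vs NP0. There were 0 in the other comparisons. The share of all 214 miRNAs under that limit was 7.01%, 3.27%, 1.4% and 8.88% in these 4 comparisons. The 4 values were miR-132, which is induced through CREB, at 0.27 in P16 vs NP, miR-125b at -0.49 in P24 vs NP, miR-182 at 1.01 in P24 vs P16 and miR-27a-3p at -0.35 in NP8 vs NP0. The value of miR-182 rested on heifer 24 and was -0.06 without it, that of miR-125b was nearest to 0 without heifer 18, at -0.33, and that of miR-132 lay between 0.22 and 0.32 with any heifer left out. The leukocyte miRNA miR-142-5p was at -0.13 ± 0.09 (SE) in P16 vs NP and -0.07 ± 0.11 in P24 vs NP, and the other arm of its hairpin, miR-142-3p, was at 0.08 ± 0.18 and 0.21 ± 0.23. miR-223 was at 0.15 ± 0.13 and -0.01 ± 0.16, miR-181a, a T cell regulator, at -0.14 ± 0.10 and 0.18 ± 0.20, and miR-342 at -0.003 ± 0.12 and -0.09 ± 0.14 in the same comparisons.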

How the data were processed

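The deposited counts give the reads of each mature miRNA. Per the paper's methods and the labels, the authors obtained these from single-end reads of TRIzol LS plasma RNA in TruSeq small-RNA libraries, with sRNAtoolbox, the bovine genome UMD 3.1 and mature miRBase sequences (bovine first, also human), with up to 1 mismatch. How reads that match several names were shared is not given in the sources used here. The authors then scaled the counts by the mapped reads of each library, which gave the deposited RPM values.

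Counts were tested here with R 4.3.3 and edgeR 4.0.16 (glmQLFit and glmQLFTest on TMM-scaled counts, two-sided, Benjamini-Hochberg over 214 miRNAs, FDR limit 0.1), with DESeq2 1.42.0, limma 3.58.1 on log2(RPM + 1) or log2(RPM + 0.1), library totals, no filter or a filter at 100 RPM, the P16 library of heifer 28 and a replicate block as alternatives. NP is 1 value per heifer, counts summed and RPM averaged over 3 days. P16 held 10 heifers and P24 held 11. Replicates are separate heifers. The replicate number is the subject label, which pairs the libraries of a heifer on several days, and NP and P heifers are not paired. The sign flips and the replicate block use this pairing, and the main edgeR fits and other alternatives do not. Within-heifer changes used exact sign flips, and the exact permutation test between the states used all splits of the heifers. The share of variance between heifers and the correlations used 100000 permutations, except within the 8 NP heifers, where the correlations used all 40320. All of these tests were on log2(RPM + 1). They ran in numpy 2.4.6, scipy 1.17.1 and pandas 2.3.3 under Python 3.11.15. Intervals are at 95%. The edgeR, DESeq2 and limma steps were tested on simulated data. Figures were drawn with matplotlib 3.10.9.

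The members, the list of 24 immune miRNAs and the cell type markers were chosen with earlier results of these data known. All 4 members are given, with the 3 miRNAs most like each by Pearson's r over heifer means, and from the list any miRNA past the FDR and miR-142, miR-223, miR-181a and miR-342. The 4 miRNAs of the list with an unadjusted p under 0.05 were named after their values were seen. Mature sequences were not used here.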

Additional observations from a re-analysis of the deposited data

Results flagged for a closer look

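Values far from the rest of their group were looked for in 16 groups of a member with 8 or 10 libraries, by the gap of the highest or lowest value to its neighbour as a share of the group's range. Chance flags about 1 in 20 groups, and 2 were found. miR-146b in NP16 was 83.23 RPM in heifer 18, with a gap of 0.662 of the range against a limit of 0.526. miR-150 in P16 was 13637.4 RPM in heifer 29, with a gap of 0.542 against a limit of 0.466. P24, with 11 libraries, is outside the group sizes tested this way, and its library of heifer 24 is described with the results.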

How the results depend on the processing

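Of the 28 log2 fold changes of members, 14 changed sign under some alternative, all of them within 0.22 of 0 at first, and none passed the FDR under any. With library totals, miR-146a was 0.0264 in P16 vs NP, 0.0285 in P16 vs NP16 and -0.11 in NP16 vs NP8, and miR-146b was 0.0739 in P24 vs NP and -0.0644 in NP8 vs NP0. With limma, on log2(RPM + 1) and log2(RPM + 0.1), miR-146a was -0.102 and -0.103 in NP16 vs NP8, and miR-150 was -0.015 by both in P16 vs NP, 0.0355 by both in P16 vs NP16, and -0.00484 and -0.00487 in NP16 vs NP0. miR-146b was -0.00709 in P24 vs P16 with heifer 28 kept and -0.0242 in NP8 vs NP0 with no filter. The replicate block, which pairs days by animal, gave -0.00658 for miR-146b in NP8 vs NP0 and changed no call. The filter at 100 RPM left no value for miR-146b.

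Leaving out each heifer in turn gave, for miR-146a, -0.0743 to 0.0767 in P16 vs NP, -0.0238 to 0.146 in P24 vs NP, -0.263 to 0.0111 in P16 vs NP16 and -0.035 to 0.163 in NP16 vs NP8. For miR-146b it gave -0.186 to 0.0547 in P16 vs NP, -0.205 to 0.127 in P24 vs NP, -0.167 to 0.161 in P24 vs P16 and -0.147 to 0.242 in NP8 vs NP0. For miR-150 it gave -0.164 to 0.215 in P16 vs NP, -0.383 to 0.0663 in P16 vs NP16 and -0.369 to 0.0319 in NP8 vs NP0. For miR-155 it gave -0.209 to 0.0349 in P16 vs NP and -0.206 to 0.0325 in NP16 vs NP0.

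The number of miRNAs called in P16 vs NP, 2, was 1 with the filter at 100 RPM and 0 with heifer 28 kept. DESeq2 called 1 in P16 vs NP16, 1 in NP8 vs NP0 and 3 in NP16 vs NP0, where library totals and no filter each called 1, all against 0. On the TMM scale the share of variance between NP heifers was 0.582 for miR-146a, which then passed, 0.1 for miR-146b and 0.153 for miR-150, which no longer passed. The correlation over heifers on that scale was -0.065 for miR-146b with miR-150, -0.162 for miR-146b with miR-155 and 0.457 for miR-150 with miR-155, which no longer passed. With heifer 28 kept, whose 4 values were all low, r was 0.582 for miR-146a with miR-146b, 0.479 with miR-150 and 0.565 with miR-155, and 0.484 for miR-146b with miR-155, all of which then had an adjusted p under 0.05. That of miR-146b with miR-150, 0.432, had an adjusted p of 0.0655, which is under the FDR limit of 0.1. The cause of these changes was not tested. Depth limits miR-146b most, with 42 to 695 reads per library.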

Other observations

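In heifer 24, the miRNAs with a larger log2 change from Day 16 to Day 24 of pregnancy than miR-155 (2.30) were miR-133a (4.06), a muscle miRNA, miR-181d (3.85), miR-182 (3.83), hsa-miR-3168 (3.63) and miR-181c (2.42), chosen after their values were seen. The median over the 214 miRNAs was 0.14, and 14 of them were at their lowest of P24 in this library.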
